A study of Mus musculus with 8 samples.

Results

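The genes described are 10 components of the Notch pathway, chosen by name: the ligands Dll1 and Jag1, the receptors Notch1 and Notch2, the DNA-binding factor Rbpj, and the target genes Hes1, Hes5, Hey1, Hey2 and Nrarp. All 10 were found among the 21853 protein-coding genes of the annotation. A Notch receptor is cut when it meets a ligand on a neighbouring cell, and its released intracellular part joins RBPJ on DNA to switch on target genes. Many of those targets encode repressors of the Hes and Hey families. In the developing spinal cord the pathway keeps neural progenitors from differentiating, and its components are also active in astrocytes and ependymal cells, the cell types in which the transcription factor SOX9 is best known in the adult cord.

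SOX9 binding was profiled by CUT&Tag, in which a transposase tethered through antibodies cuts DNA near the bound protein. The nuclei came from 5 mm segments of spinal cord of adult wild-type (WT) C57BL/6 mice, either uninjured or 1 day after a mid-thoracic contusion (1 d.p.i.). The labels name the DNA dye 7AAD for the sort, whereas the methods of the study refer to a sort with antibodies to NEUN (neurons) or SOX10 (oligodendrocyte lineage) as well, so the mix of cell types is not known. Each condition had 1 male (M) and 1 female (F) nuclei sample, and 20% of the nuclei of each sample served as a control given the secondary antibody but no SOX9 antibody. The result was 8 libraries in 4 groups of 2, so sex and replicate cannot be told apart.

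Levels are given as coverage over the library mean, so that a level of 1 is the genome average, within 1 kb of the transcription start site (the promoter) and over the gene body with 20 kb on each side (the locus). Depth differed between libraries, with 1891276 (M) and 7216730 (F) fragments in the uninjured SOX9 libraries, then 2529356 (M) and 2385009 (F) after injury. A single fragment of mean length in a promoter window was worth a level of 0.721, 0.189, 0.539 and 0.571 in those libraries, in the same order. The 4 controls held between 10906 and 52950 fragments, and there a single fragment was worth a level between 25.7 and 125, so that no level of a single promoter is given for them.

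The secondary-only controls were enriched at these genes too, but most of their fragments that stood alone in the loci had the same ends as SOX9 fragments, so they are not shown to be an independent background. The 10 promoters together held 13 control fragments, 12 times the number expected from the library mean (95% Poisson interval 6.39 to 20.5). In the SOX9 libraries together they held 1115 fragments, 9.67 times the expected number (9.11 to 10.3). As a share of all fragments this was 0.00974% in the controls (95% Wilson interval 0.00569% to 0.0167%) and 0.00795% in the SOX9 libraries (0.00750% to 0.00843%). Over the 10 loci the enrichment was 2.44-fold in the controls (1.99 to 2.96) and 2.33-fold in the SOX9 libraries (2.29 to 2.38). Promoters in general are enriched too, since the mean coverage level over all coding promoters was 6.42 to 7.30 in the controls and 4.80 to 8.80 in the SOX9 libraries. Over all coding loci it was 2.1 to 2.24 and 1.94 to 2.38, so that in the controls both means lie within the intervals of the 10 members. In each SOX9 library the promoter mean lay below the members' interval of that library. The locus mean did so too, except in uninjured F (2.38, interval 2.35 to 2.48). The means are of coverage, whereas the intervals are of fragments over the number expected.

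For all 10 promoters and all 10 loci, the number of control fragments that the SOX9 share would give lay inside the exact 95% Poisson interval of the control count. The Notch1 locus held 42 control fragments where 31.2 would be had at the SOX9 share. The Rbpj promoter held 5 where 2.51 would be had, with at least 1 in each of the 4 controls. The Hes1 locus held 0 of the 133454 control fragments, which allows a share of up to 0.00225% (3 fragments). At the SOX9 share 3.63 would be had, above those 3 fragments and below the Poisson bound of 3.69, so this depth cannot settle it. Of 83 control fragments in the loci that stood alone in the coverage, 71 (85.5%) coincided at both ends with SOX9 fragments, while 0 did after a shift of 1000 bp. Where those control fragments came from was not tested, and copies of SOX9 fragments would give equal shares whatever the true background. An excess of the SOX9 libraries over the background therefore cannot be judged from these controls, and the levels that follow are those of the SOX9 libraries alone.

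Among the ligands, Dll1 (chr17:15367354-15376872), which signals to neighbouring cells through Notch receptors, had promoter levels of 5.28 (M) and 12.4 (F) in the uninjured libraries, then 8.18 (M) and 8.20 (F) after injury. The libraries at 1 d.p.i. lay between the uninjured ones, so the conditions overlapped. Jag1 (chr2:137081456-137116644), a ligand of the Jagged family, had levels of 3.47 (M) and 4.56 (F) in the uninjured libraries, then 6.28 (M) and 4.09 (F) after injury, and these overlapped too. The log2 changes at 1 d.p.i. were 0.01 (SE 0.67) for Dll1 and 0.32 (SE 0.66) for Jag1, on the scale of log2(level + 0.5). That of Jag1 ranged from 0.0341 without the M library at 1 d.p.i. to 0.60 without the F library at 1 d.p.i. Counted as fragments over the number expected, the Jag1 promoter had 2.55 (M) and 3.4 (F), then 4.29 (M) and 3.53 (F), so that the conditions did not overlap.

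Of the receptors, Notch1 (chr2:26457903-26516663) had promoter levels of 4.96 (M) and 7.20 (F) in the uninjured libraries, then 7.15 (M) and 10.1 (F) after injury, resting on 6, 35, 13 and 16 fragments. The ranges overlapped, since the uninjured F library lay just above the M library at 1 d.p.i. Counted as fragments over the number expected, the levels were 3.83 (M) and 5.95 (F), then 6.19 (M) and 8.08 (F), and both libraries at 1 d.p.i. were higher. The log2 change was 0.48 (SE 0.66), and it ranged from 0.23 without the uninjured M library to 0.73 without the uninjured F library. Notch1 has a start site further upstream, at chr2:26516663, where the mean level over the 4 SOX9 libraries was 2.1 against 7.36 at the principal one at chr2:26503822.

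Notch2 (chr3:98013527-98150361) had the lowest mean promoter level of the group, from levels of 1.52 (M) and 5.87 (F) in the uninjured libraries, then 2.66 (M) and 3.38 (F) after injury. They rested on 3, 31, 4 and 5 fragments, and the uninjured F library alone stood above the others. The log2 change was -0.04 (SE 0.69) within 1 kb of the start site and 0.96 within 500 bp of it, neither past the threshold. The change was -0.47 with fragments in place of coverage and -0.59 with fragments thinned to the smallest SOX9 library. Its size and direction thus rested on the settings, the width of the window among them.

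Rbpj (chr5:53466152-53657362), the factor through which the receptors act on DNA, had the highest mean promoter level, from levels of 13.2 (M) and 28.1 (F) in the uninjured libraries, then 17.6 (M) and 23.8 (F) after injury. The uninjured libraries were the lowest and the highest of the 4, so the conditions overlapped fully, with a log2 change of 0.09 (SE 0.72). The coverage sat at a cluster of start sites between chr5:53590214 and chr5:53590981, with mean levels of 16.9 to 23.2. At the start sites further upstream, chr5:53466152 and chr5:53555834, the mean levels were 1.18 and 0.821, near the genome average.

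Among the target genes, Hes1 (chr16:30064384-30067796), a repressor that holds progenitors in an undifferentiated state, had promoter levels of 2.08 (M) and 3.53 (F) in the uninjured libraries, then 5.60 (M) and 6.02 (F) after injury. Both libraries at 1 d.p.i. lay above both uninjured libraries, on 9 and 10 fragments against 4 and 26. The means were 2.81 ± 1.03 and 5.81 ± 0.290 (SD, n = 2 each), and limma gave a log2 change of 0.97 (SE 0.66) with an adjusted p of 1.00. Counted as fragments over the number expected, the Hes1 promoter had 2.55 (M) and 4.42 (F), then 4.29 (M) and 5.05 (F), so that the conditions overlapped. The log2 change was 0.41 with fragments, 0.15 with fragments thinned to the smallest SOX9 library and 0.27 at the 5-prime end of the gene record.

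Hes5 (chr4:154960923-154962371), a related repressor of neuronal differentiation, had promoter levels of 6.78 (M) and 11 (F) in the uninjured libraries, then 8.70 (M) and 3.46 (F) after injury. The F library at 1 d.p.i. was the lowest and the uninjured F library the highest, so the conditions overlapped. Nrarp (chr2:25180758-25183339), which encodes a feedback inhibitor of Notch signalling, had levels of 13.9 (M) and 18.6 (F) in the uninjured libraries, then 13.5 (M) and 7.51 (F) after injury. Both libraries at 1 d.p.i. lay below both uninjured ones, although the M libraries differed by far less than their counting intervals (8.24 to 22.0 and 9.03 to 19.4). The log2 changes were -0.60 (SE 0.66) for Hes5 and -0.65 (SE 0.69) for Nrarp. That of Hes5 was -0.11 within 500 bp of the start site and -0.26 within 2 kb of it. Counted as fragments over the number expected, the Nrarp promoter had 11.5 (M) and 17.0 (F), then 13.8 (M) and 7.57 (F), so that the conditions overlapped and M was higher after injury. Its log2 change was -0.43 with fragments and -0.27 with thinned fragments, and it ranged from -0.25 without the F library at 1 d.p.i. to -1.05 without the M library at 1 d.p.i.

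The Hey genes encode repressors related to the Hes family. Hey1 (chr3:8663359-8667256) had promoter levels of 13.2 (M) and 21.2 (F) in the uninjured libraries, then 15.4 (M) and 12.3 (F) after injury. Hey2 (chr10:30832359-30842801) had levels of 6.85 (M) and 9.97 (F) in the uninjured libraries, then 11.4 (M) and 6.34 (F) after injury. In both genes the conditions overlapped, and the log2 changes were -0.27 (SE 0.70) for Hey1 and 0.04 (SE 0.67) for Hey2. The sign turned under other settings at Dll1, Hey2, Notch2 and Rbpj, where the change was close to 0, and with another window width or start site at Jag1 and Notch1. With 1 library left out it turned at Dll1, Hes5, Hey1, Hey2, Notch2 and Rbpj.

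**Figure D1:**
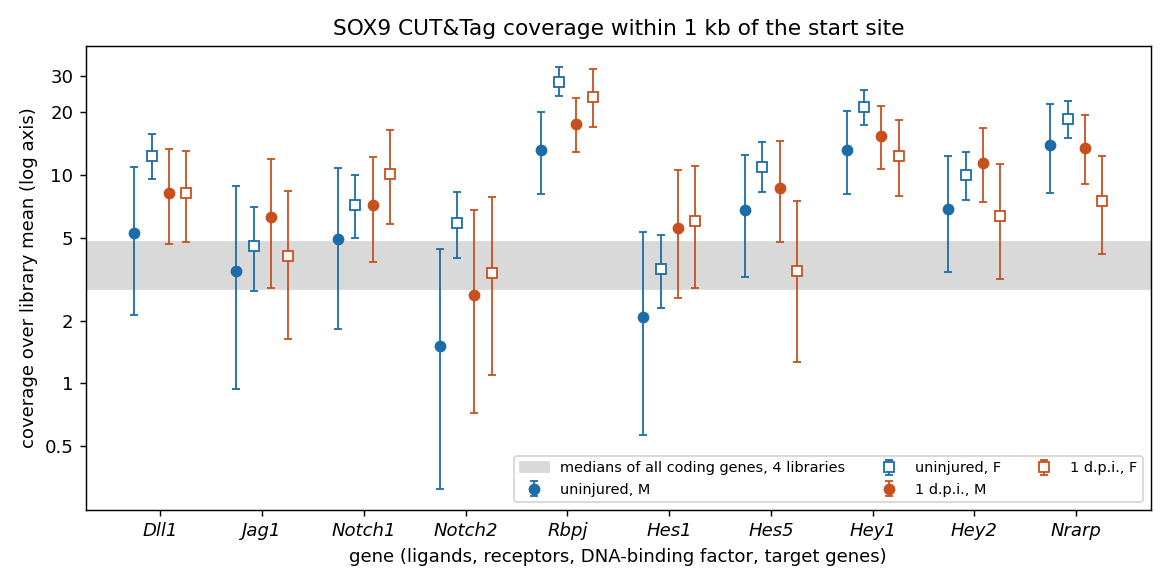
SOX9 CUT&Tag coverage within 1 kb of the start site over the library mean (vertical log axis) for the 10 genes along the horizontal axis, with 1 point for each of the 4 SOX9 libraries and bars for 95% counting intervals. The grey band spans the medians of all coding genes in the 4 libraries, 2.83 to 4.79. Rbpj, Hey1, Nrarp, Hey2, Dll1 and Notch1 lie above the band in all 4 libraries. By this measure the points of the 2 conditions do not overlap at Hes1 and Nrarp, but they do when fragments are counted in place of coverage.

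In the order of the mean promoter level over the 4 SOX9 libraries, Rbpj came first (20.7 ± 6.63, SD, n = 4), followed by Hey1 (15.5 ± 3.98), Nrarp (13.4 ± 4.54), Hey2 (8.65 ± 2.46), Dll1 (8.50 ± 2.91), Hes5 (7.50 ± 3.21), Notch1 (7.36 ± 2.1), Jag1 (4.60 ± 1.21), Hes1 (4.31 ± 1.84) and Notch2 (3.36 ± 1.84). Only the steps from Nrarp to Hey2 and from Notch1 to Jag1 were larger than the SD of both neighbours. The SD spans both conditions and any shift shared by the genes of a library, and neighbours in this order were not compared within libraries. Among all coding genes these means ranged from percentile 47.1 for Notch2 to 94.8 for Rbpj. The members lay above the median of all coding promoters in 8 (M) and 8 (F) of 10 cases in uninjured cords, and in 9 (M) and 10 (F) after injury.

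The members' promoters shared a high content of CpG, a feature the choice of genes did not use and that was looked at after the levels were seen. In 9 of 10 the window held at least 55% G and C and at least 0.6 times the expected CpG, and Hes1, at 50.9% G and C, was the exception. Over all genes the median level was 9.43 at the 4592 CpG-rich promoters and 2.58 at the 17261 others, against 8 for the 10 members. Measured against CpG-rich promoters alone, the members ranged from percentile 13.5 (Notch2) to 85.2 (Rbpj).

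At the promoters, limma called 0 of the 10 members changed at 1 d.p.i., beside 2 of the 16206 coding promoters tested (0.0123%). An unadjusted p under 0.05 was reached by 0 members, by 126 promoters higher after injury and by 130 lower. The members' median log2 change was 0.03, and that of all promoters tested was -0.07. The 2 promoters called, Ftl1-ps1 and Gm11361, are named after their values were seen and belong to no Notch list, and 0 promoters were called when any of the 4 SOX9 libraries was left out. Because the nuclei were profiled in bulk, a change in the mix of cells and a change in SOX9 binding per cell cannot be told apart.

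Counted by overlap alone, both libraries at 1 d.p.i. lay above both uninjured ones at 1 member's promoter (Hes1), as in 7.2% of all promoters tested. They lay below at 1 member's promoter (Nrarp), as in 14.4% of all promoters tested. With fragments in place of coverage, a count added after the data were seen, the members above were Notch1 and Jag1 (2 of 10, beside 6.90% of all promoters tested) and 0 of 10 lay below (beside 13.6%). Which members did not overlap thus rested on the measure, and no member did so by both. An exact permutation test of 2 libraries against 2 cannot give a p under 0.333, so none is given.

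Most promoters tested had a higher level after injury in M and a lower level in F, a difference that was not tested, with 1 library for each sex and condition. In M, 9 of 10 members had a higher promoter level at 1 d.p.i., as did 71.5% of all promoters tested, and in F, 2 of 10 members did, as did 20.1%. The members higher in M and lower in F numbered 7 of 10, beside 59.1% of all promoters tested. With fragments they numbered 6, beside 61.2%. The uninjured F library, the deepest of the 4, had the highest mean level over all coding promoters (8.80), against 4.80 in uninjured M, 6.70 in injured M and 5.60 in injured F. The part of depth and of this library in these directions was not tested. With this library left out, the median log2 change of all promoters tested was 0.31, and with the uninjured M library left out it was -0.50.

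Over whole loci, 0 of 10 members were called beside 22 of 14084 coding loci tested (0.156%), all 22 higher at 1 d.p.i. An unadjusted p under 0.05 was reached by 1 member, Hes1, by 300 loci higher after injury and by 197 lower. Scaling by the trimmed mean of log ratios, the fit of all 8 libraries and the fit without the mean-variance trend each called 0 loci, while scaling by the median of the tested windows called 50 higher and 3 lower. The number called also depended on single libraries, being 91 higher and 183 lower without the uninjured M library, 151 and 31 without the uninjured F library, and 2 and 4 higher without the M or the F library at 1 d.p.i. The Hes1 locus had levels of 1.20 (M) and 1.61 (F) in the uninjured libraries, then 1.97 (M) and 1.96 (F) after injury. Each library at 1 d.p.i. exceeded each uninjured one, with a log2 change of 0.38 (SE 0.16) and a limma adjusted p of 1.00. Without the uninjured F library its log2 change was 0.54 with an adjusted p of 0.0369. Without the uninjured M library it was 0.22 with an adjusted p of 0.336, and in the fits that left out a library at 1 d.p.i. it was not called either.

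Loci in which both libraries at 1 d.p.i. lay above both uninjured ones numbered 3 of 10 (Notch2, Hes1 and Rbpj), beside 10.7% of all loci tested, and 0 of 10 lay below, beside 14.8%. Levels in the Rbpj locus were 1.02 (M) and 1.04 (F) in the uninjured libraries, then 1.22 (M) and 1.46 (F) after injury. Those in the Notch2 locus were 1.42 (M) and 1.20 (F), then 1.59 (M) and 1.52 (F). These steps are small and close to the genome average of 1, with log2 changes of 0.26 (SE 0.15) for Rbpj and 0.18 (SE 0.15) for Notch2. With 1 library left out these ranged from 0.16 to 0.36 and from 0.0974 to 0.27. Members higher in M and lower in F numbered 5 of 10 over the loci, beside 56.9% of all loci tested. With fragments in place of coverage, Notch2, Hes1 and Rbpj were again the 3 of 10 above (beside 10.6% of all loci tested) and 0 lay below (beside 14.0%). Those higher in M and lower in F were 5 of 10, beside 59.2%.

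The loci differed in how much coverage they held. The Notch1 locus, flanks included, was the highest, at 5.60 (M) and 7.09 (F) in the uninjured libraries, then 6.74 (M) and 5.29 (F) after injury, on 380 to 1808 fragments. Its flank holds a 1-kb tile by the start site of Sec16a with levels of 88.4 to 181. The Notch1 gene body outside the promoter had lower levels, 4.76 (M) and 5.21 (F), then 5.64 (M) and 4.19 (F). The rank is thus that of the locus with this flank and not of the gene alone, and the locus was not ranked without that tile. Hes5 and Nrarp followed with means over the 4 SOX9 libraries of 5.24 ± 1.05 and 4.74 ± 0.876 (SD, n = 4). Hey2 had the lowest mean over the 4, from levels of 1.44 (M) and 0.760 (F) in the uninjured libraries, then 1.24 (M) and 0.701 (F) after injury. There both M libraries lay above both F libraries.

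In 1-kb tiles, 27 of the 843 tiles in the 10 loci (3.20%) reached at least 5 times the mean in all 4 SOX9 libraries, beside 0.851% of all tiles of the genome. The genome share includes tiles far from any gene, whereas all coding loci had mean levels of 1.94 to 2.38 in the SOX9 libraries. The share of such tiles over all coding loci was not counted, so an excess of the members over other genes is not shown. Notch1 held 10 of 98 and Nrarp 6 of 42, while Notch2 (of 176) and Jag1 (of 74) held 0. Of the 10 in the Notch1 locus, 4 lay near a coding start site and 6 did not. Those near a start site were the tiles from chr2:26444001 to chr2:26447000, by Sec16a in the flank, and the tile chr2:26503001-26504000 at the principal Notch1 start site. In the Nrarp locus only 1 of 6 lay near one, so that coverage there was spread over the flanks. This rule was chosen after the data were seen and is a description.

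**Figure D2:**
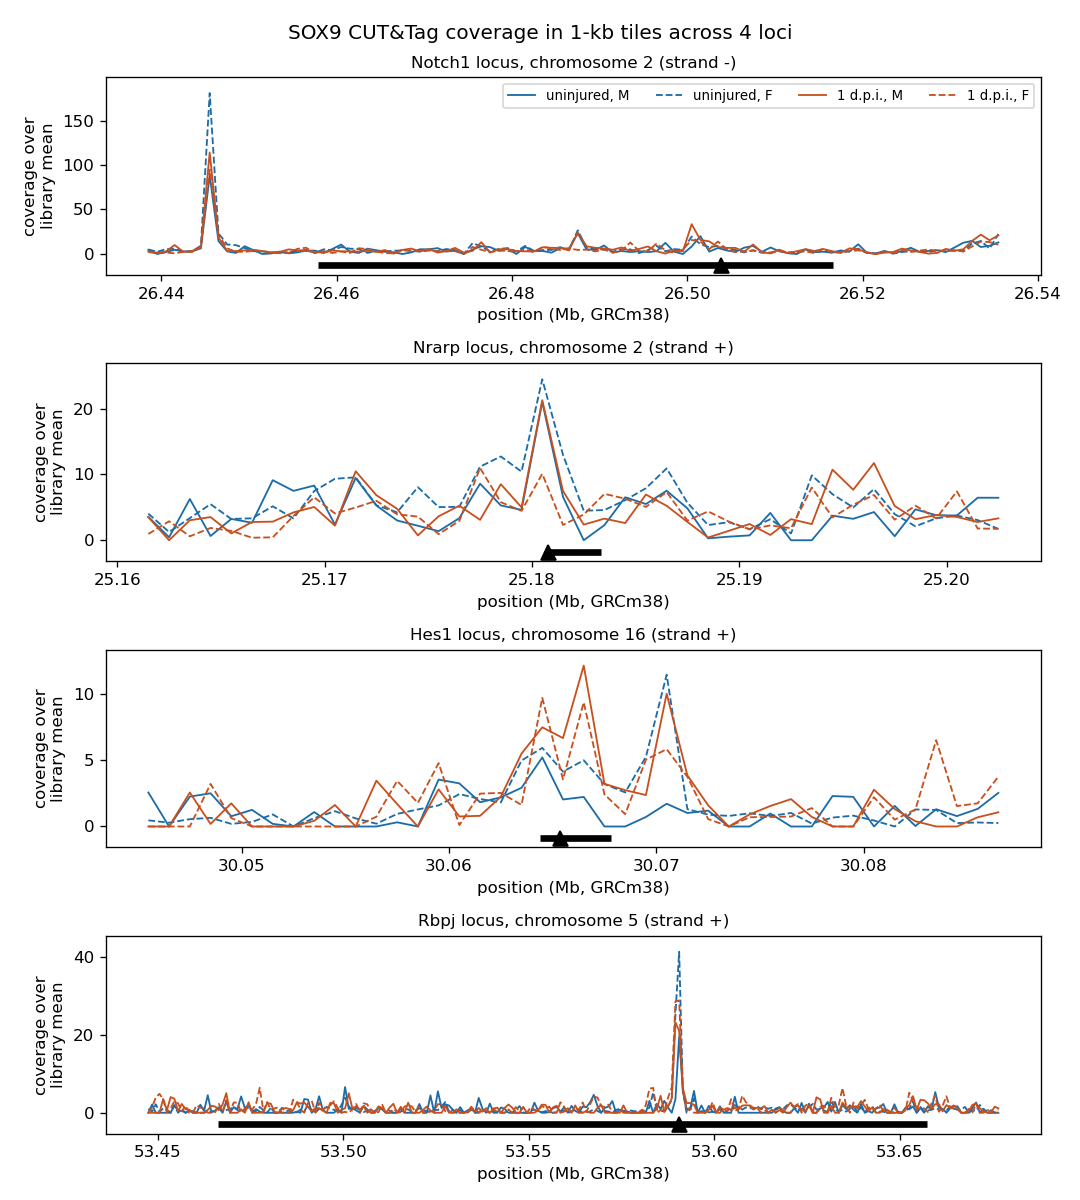
Coverage over the library mean (vertical axis) in 1-kb tiles against position in Mb on GRCm38 (horizontal axis) for the Notch1, Nrarp, Hes1 and Rbpj loci, with 1 line for each SOX9 library. Black bars mark the genes and triangles the principal start sites. The highest tile of the Notch1 locus (88.4 to 181) lies outside the gene, that of Rbpj at or beside its start-site cluster, and that of Hes1 differs between libraries.

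The highest 500-bp window of each locus, chosen on the mean of the 4 SOX9 libraries, overlapped the gene's own promoter in 5 of 10 loci (Hey1, Hey2, Jag1, Rbpj and Nrarp). In 3 it lay at or beside the start site of a neighbouring gene, Sec16a for Notch1, Pank4 for Hes5 and Fam120b for Dll1. The window by Sec16a, chr2:26445301-26445800, had levels of 116 (M) and 252 (F) in the uninjured libraries, then 153 (M) and 114 (F) after injury. It overlaps a noncoding exon of 0610009E02Rik and lies 58271 bp from the Notch1 start site, in the flank that counts towards the Notch1 locus. In the Hes1 locus it lay 4661 bp past the start site, at chr16:30069751-30070250, with levels of 4.81 (M) and 15.7 (F), then 11.2 (M) and 10.9 (F).

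More than 1 kb away from every coding start site, a choice made after the data were seen, the highest 500-bp window was in an intron of Notch1, at chr2:26487401-26487900. Its levels were 37.4 (M) and 36.8 (F) in the uninjured libraries, then 36.5 (M) and 4.10 (F) after injury. The F library at 1 d.p.i. was the only low one, on 3 fragments. In the Hes5 locus, the window at chr4:154946551-154947050 had 52.5 (M) and 11.9 (F), then 8.47 (M) and 14.8 (F), so that a single library set its rank. In the Nrarp locus, the window at chr2:25171651-25172150 had 15.4 (M) and 15.1 (F), then 10.8 (M) and 6.98 (F), and both libraries at 1 d.p.i. were lower.

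Windows were searched on both strands for AACAAT (letters bound by SOX factors), TGGGAA (by RBPJ) and TGANTCA (by AP-1), and a match is a description of the letters alone. In the highest 500-bp windows, AACAAT was found in 2 of 10 members and in 12.7% of the windows of all 21853 coding loci. TGGGAA was found in 4 of 10 and in 33.8%, and TGANTCA in 1 of 10 and in 9.46%. In the highest 200-bp windows the shares over all loci were 5.79%, 14.3% and 4.04%, and the members with a match numbered 1, 3 and 1. No difference from the other loci was tested.

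Below are some 200-bp windows of highest mean coverage outside untranslated regions that hold 1 of the 3 motifs, read from the plus strand of GRCm38 (mm10) as distributed by RefSeq, with the motif in capitals. They show what the sequence under the coverage looks like at a target gene promoter, upstream of a target gene and in a receptor intron. The Nrarp promoter window, chr2:25180551-25180750, ends just before the start site and holds AACAAT on the minus strand, and its levels were 29.0 (M) and 40.3 (F), then 27.3 (M) and 12 (F). The F library after injury was the lowest of the 4.
Nrarp promoter: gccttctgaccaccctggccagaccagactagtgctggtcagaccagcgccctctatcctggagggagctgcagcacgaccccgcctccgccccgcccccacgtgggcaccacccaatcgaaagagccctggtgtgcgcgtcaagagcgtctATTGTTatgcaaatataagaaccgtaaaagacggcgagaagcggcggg

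The Notch2 window, chr3:98043151-98043350, is centred 29713 bp past the start site, in an intron, and holds TGAGTCA, a form of TGANTCA, on the plus strand. Its levels were 5.63 (M) and 5.85 (F) in the uninjured libraries, then 18.5 (M) and 12.7 (F) after injury. Both libraries at 1 d.p.i. were higher, on 6 and 3 fragments against 1 and 9, and the window was not tested. The Nrarp window chr2:25171801-25172000, intergenic and centred at -8857 bp from the start site, is the highest there away from start sites and holds AACAAT on the plus strand. Its levels were 16.3 (M) and 22.9 (F), then 11.2 (M) and 12.4 (F), with both libraries at 1 d.p.i. lower and no test made.
Notch2 intron: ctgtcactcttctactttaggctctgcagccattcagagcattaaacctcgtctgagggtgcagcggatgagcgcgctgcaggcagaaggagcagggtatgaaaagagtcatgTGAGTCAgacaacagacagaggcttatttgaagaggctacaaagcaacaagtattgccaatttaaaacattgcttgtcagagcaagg
Nrarp upstream: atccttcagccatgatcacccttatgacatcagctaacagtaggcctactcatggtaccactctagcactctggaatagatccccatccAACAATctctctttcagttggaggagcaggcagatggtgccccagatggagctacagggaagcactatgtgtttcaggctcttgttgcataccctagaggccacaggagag

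Away from start sites, the highest 200-bp windows of all coding loci held AACAAT in 8.33%, TGGGAA in 17.0% and TGANTCA in 6.40%. Among the members the numbers with a match were 1, 2 and 1 of 10.

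Beyond the 10 members, 52 other genes of the pathway were measured, of which 50 passed the minimum level at the promoter and 49 over the locus. Of these, limma called 0 higher and 0 lower at the promoter and 0 in either direction over the locus, while an unadjusted p under 0.05 was reached by 0 promoters and 1 locus. Their promoters had a median log2 change of -0.13, against -0.07 over all promoters tested. Both libraries at 1 d.p.i. lay above both uninjured ones at 4 of the 50 promoters and below at 11, beside 7.2% and 14.4% of all promoters tested.

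The gene with the highest promoter level is given for most roles. Aph1b, a subunit of the protease that cuts the receptor, had 14.7 (M) and 47.8 (F) in the uninjured libraries, then 32.5 (M) and 26.1 (F) after injury. Mib2, a ubiquitin ligase that acts on ligands, had 16.6 (M) and 32.8 (F), then 27.8 (M) and 10.2 (F). In both of these the uninjured F library was the highest and the conditions overlapped.

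The same held for Numbl, related to the Notch inhibitor Numb (10.3 to 28.5 over the 4 libraries), and for Maml1, a coactivator that joins the receptor and RBPJ on DNA (6.67 to 22.2). It also held for the ligand Jag2 (4.89 to 14.5), for Pofut1, which adds fucose to the receptors (6.50 to 13.6), and for the Hes family gene Hes6 (3.02 to 14.3). Notch3, the higher of the other receptors, had 4.65 (M) and 1.66 (F) in the uninjured libraries, then 0.871 (M) and 1.13 (F) after injury. Its libraries at 1 d.p.i. were both lower, with a log2 change of -1.16 (SE 0.80), and the uninjured M library alone stood far above the others.

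By coverage, the other genes with the largest differences and no overlap were as follows. Whether the conditions also fail to overlap with fragments in place of coverage was not checked for these genes or for Notch3. Dtx4, of the Deltex family of ubiquitin ligases, had 3.17 (M) and 11.6 (F) in the uninjured libraries, then 15.9 (M) and 12.4 (F) after injury, with a log2 change of 1.12 (SE 0.67). There the uninjured M library alone stood far below the others. Numb had 0 (M) and 0.781 (F), then 2.51 (M) and 0.911 (F), levels of a few fragments at most. The Numb window is at the principal start site, chr12:83842343, inside the gene. The 5-prime end of the gene record is at chr12:83921934, and no level there is given. Hes3 had 6.25 (M) and 6.02 (F), then 8.14 (M) and 7.82 (F), a log2 change of 0.35 (SE 0.66). In these 3 both libraries at 1 d.p.i. were higher, and none passed the threshold. Lower at 1 d.p.i. in both libraries were Aph1a, a further protease subunit, with 15.5 (M) and 21.5 (F), then 12.9 (M) and 7.99 (F), and Mfng, a glycosyltransferase of the Fringe family, with 7.03 (M) and 8.68 (F), then 3.51 (M) and 5.98 (F). Their log2 changes were -0.81 (SE 0.69) and -0.71 (SE 0.66), and neither passed the threshold.

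Markers of the cell types in the cord were measured in the same way. The lists differ in size and were not matched for CpG content, so the sums do not show which cells the coverage came from. The 6 oligodendrocyte markers had the highest summed promoter level, 85.8 (M) and 126 (F) in the uninjured libraries, then 124 (M) and 72.3 (F) after injury, with the highest mean at Mbp. The 7 astrocyte markers summed to 34.7 (M) and 34.2 (F), then 48.2 (M) and 33.5 (F), with the highest mean at Slc1a2 and 1 marker at 0 in uninjured M. Over whole loci the median over the markers, in the 4 SOX9 libraries, was 3.46 to 4.43 for the oligodendrocyte markers, 2.38 to 2.72 for those of microglia and macrophages and 1.28 to 1.52 for those of astrocytes. The order of the lists thus differed between promoters and loci, with oligodendrocyte markers above the astrocyte markers in both.

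The 6 neuronal markers summed to 35.3 (M) and 54.3 (F) in the uninjured libraries, then 43.1 (M) and 26.6 (F) after injury, with the highest mean at Syt1. The 6 ependymal markers summed to 20.5 (M) and 39.4 (F), then 29.1 (M) and 29.4 (F), with the highest mean at Foxj1 and 1 at 0 in uninjured M. The 6 markers of microglia and macrophages summed to 9.01 (M) and 10.1 (F), then 9.87 (M) and 13.7 (F), with the highest mean at Cx3cr1 and 1 at 0 in M at 1 d.p.i. The 6 endothelial markers summed to 9.44 (M) and 8.78 (F), then 8.07 (M) and 9.07 (F), with the highest mean at Cldn5 and 2 at 0 in F at 1 d.p.i. Oligodendrocyte and neuronal sums were lowest in F at 1 d.p.i., as was the astrocyte sum by a small margin, and as were the promoter levels of Hes5, Hey1, Hey2 and Nrarp, and the part of the cell mix in those levels was not tested.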

How the data were processed

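Before deposition the authors mapped reads to mm10 (Bowtie2 2.5.4) and dropped duplicates (Picard 3.4.0). Their deposited signal is coverage in whole numbers per library, which was divided by its mean over chromosomes 1 to 19, X and Y. Genes and principal start sites came from GENCODE M21. A rise of the coverage counted as a fragment. Coding promoters and loci with a mean level of at least 1 over the 4 SOX9 libraries were fitted on log2(level + 0.5) in R 4.3.3, by limma 3.58.1 with a mean-variance trend, two-sided, at a Benjamini-Hochberg adjusted p of 0.05. The fit was tested on simulated data. Other steps ran in python 3.11.15 with numpy 2.4.6, pandas 2.3.3 and scipy 1.17.1. Alternatives changed scaling, filter, pseudocount, windows, fit and libraries. Poisson and Wilson intervals are at 95% and cover counting error only. The members, lists and motifs were chosen with earlier results of these data known. Other pathway genes were named by a rule: the highest promoter level in each role, any gene past the threshold, and up to 3 with the largest difference in each direction without overlap.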

Additional observations from a re-analysis of the deposited data

Results flagged for a closer look

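At 7 of the 10 promoters the level after injury was above the uninjured level in M and below it in F. Whether the sexes differ was not tested, because each had 1 library in each condition. As the log2 ratio of 1 d.p.i. to uninjured, F minus M, the gap was -2.03 for Hes5, -1.61 for Notch2, -1.39 for Hey2, -1.22 for Dll1, -1.01 for Hey1, -1.01 for Jag1 and -0.66 for Rbpj. This pattern was found at 59.1% of all promoters tested. With fragments in place of coverage, it was found at 61.2% of all promoters tested and at 6 of the 10, which did not include Notch2 and Jag1.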

How the results depend on the processing

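No member was called under any alternative that kept all 4 SOX9 libraries, at promoters or loci. Members' log2 changes turned sign in 13 of 140 promoter values and in 1 of 118 locus values under those alternatives. These totals include alternatives that cannot alter a log2 change. They are no filter, the fit of all 8 libraries, the replicate block and the fit without the mean-variance trend. The causes of the differences given here were not tested.

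At promoters, 2 genes were called higher and 0 lower. Scaling by the trimmed mean of log ratios gave 0 higher, and log2 changes of -0.00482 for Hey2 and -0.0408 for Dll1. Scaling by the median of the tested windows gave 9 higher and 1 lower, and 0.0101 for Notch2. A pseudocount of 2 gave 1 higher and -0.00515 for Dll1. With no filter 0 were called higher. Fragments in place of coverage gave -0.0267 for Hey2. Counted by fragments after seeing the data, the libraries at 1 d.p.i. were both above the uninjured ones at 2 members' promoters in place of 1, and both below at 0 in place of 1. Fragments thinned to the smallest SOX9 library gave 0 higher and -0.0704 for Rbpj. The fit of all 8 libraries gave 0 higher. A window of 500 bp on each side gave 1 higher, with 0.96 for Notch2, -0.0419 for Hey2, -0.0856 for Jag1 and -0.15 for Rbpj, and a window of 2 kb gave -0.0187 for Dll1. The 5-prime end of the gene record as start site gave 1 higher, -0.24 for Notch1 and -0.10 for Dll1.

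Over loci, 22 genes were called higher and 0 lower. The trimmed mean of log ratios, the fit of all 8 libraries and limma without the mean-variance trend each gave 0 higher. The autosome mean gave 25 higher and 1 lower, and the median of the tested windows 50 higher and 3 lower. With no filter 14 were higher. Thinned fragments gave 13 higher and -0.0558 for Jag1. Without 1 kb around start sites, 43 were higher and 4 lower.

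With a replicate block for sex, 1 promoter and 14 loci were called higher. M and F libraries of this block share a sex, not an animal, so they are not paired.

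Leaving out a library leaves a lone sample in its group, which is assumed to vary like the other group. The number of promoters called higher was then 0 in each of the 4 fits. The log2 change at promoters ranged from -0.86 to 0.79 for Notch2, -1.21 to 0.00492 for Hes5, -0.60 to 0.0592 for Hey1, -0.36 to 0.45 for Hey2, -0.57 to 0.59 for Dll1 and -0.45 to 0.62 for Rbpj. Over loci, 2 to 151 genes were called higher, 0 to 183 lower and 0 to 1 members. The log2 change over loci ranged from -0.23 to 0.0912 for Notch1, -0.48 to 0.00499 for Hes5, -0.0718 to 0.30 for Hey1, -0.42 to 0.15 for Hey2, -0.10 to 0.21 for Dll1 and -0.0576 to 0.27 for Jag1. The range for Hey2 rests on 2 of the 4 fits, since its locus fell below the minimum level without either M library, as it also did with the autosome mean and without 1 kb around start sites. The sign held in these fits at the promoters of Hes1 (0.65 to 1.29), Jag1 (0.0341 to 0.60), Notch1 (0.23 to 0.73) and Nrarp (-1.05 to -0.25), and over the loci of Hes1 (0.22 to 0.54), Notch2 (0.0974 to 0.27), Rbpj (0.16 to 0.36) and Nrarp (-0.45 to -0.0196).

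The median level of the members' highest windows was 22.5, and 10.6 in 500-bp windows away from start sites, an alternative chosen after seeing the data. Depth limits what the controls can show, with 133454 fragments against 14022371 in the SOX9 libraries, and so do the control fragments that share both ends with SOX9 fragments.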
